A study of Macaca fascicularis
Homo sapiens with 2 samples.

Results

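Cytosolic ribosomal protein genes were followed in human and cynomolgus macaque pluripotent cells on day 0 and day 7 of neural induction. Members were chosen by symbol alone: RPL or RPS followed by a digit, RPSA, and RPLP0 to RPLP2, leaving out the RPS6K kinases. The files held 130 such genes among 43173, of which 91 were among 20669 human genes and 39 among 22504 cynomolgus genes. All 39 cynomolgus symbols also occurred among the human members, and 7329 cynomolgus genes had an identifier but no symbol, so the cynomolgus set holds only part of the family. The human set held 46 large subunit genes, 31 small subunit genes, 8 paralogs of these, 2 Y-linked genes whose values are not given, and 4 genes that enter by symbol only. The cynomolgus set held 22 large subunit genes, 11 small subunit genes, 4 paralogs, 1 Y-linked gene and 1 gene that enters by symbol only.

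Human cells came from the embryonic stem cell line H9, and macaque cells from 56A1, a cynomolgus line of induced pluripotent stem cells. Every cell carried a knockout of UGP2, which makes the activated glucose used for glycogen and other sugar chains, and no cells with intact UGP2 were analysed here. Day 0 cells were labelled pluripotent and kept in UPPS medium, and day 7 cells had spent 7 days in neural progenitor medium with 10 µM SB431542 and 100 nM LDN193189, which block activin and NODAL receptors and BMP receptors. Human and cynomolgus cells were combined in equal amounts before capture, so each day is 1 library of both species, with 1 line per species. Neither day was replicated, so nothing was tested: the 95% intervals below (exact binomial or Poisson) cover counting error only, and the differences are those between these libraries.

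Each cytosolic ribosome has a large and a small subunit, built from ribosomal RNA and, for nearly every protein, a single copy. The mRNAs of these proteins are among the most abundant of a cell and begin with a pyrimidine-rich stretch through which growth signals set their translation together. Some proteins have a second gene, a paralog, with high expression in certain tissues or stages.

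The libraries held 12093 barcodes and 71377836 unique molecular identifiers (UMIs, 1 per captured transcript) on day 0, and 16403 barcodes and 99430745 UMIs on day 7. A barcode was used with at least 1000 UMIs, at most 20% mitochondrial UMIs and at least 90% of its UMIs on 1 genome. This gave 5206 human and 2016 cynomolgus cells on day 0 and 8174 and 6467 on day 7. It left out 38.2% and 9.16% of the barcodes that passed the other limits on day 0 and day 7 as neither species. The 2 libraries shared 50 barcodes. Levels are in CPM, UMIs per 1000000 non-mitochondrial UMIs on the cell's own genome. In human cells the 9 pluripotency markers summed to 4461 CPM on day 0 and 1169 on day 7, and the 11 neural progenitor markers to 219.9 and 3750. In cynomolgus cells the 6 pluripotency markers with a symbol went from 958 to 289.6 CPM and the 9 neural markers from 32.2 to 2323.

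The share of the cell's own non-mitochondrial UMIs on ribosomal protein genes was higher on day 7 in human cells and slightly lower in cynomolgus cells. In human cells the 91 genes took 14.6% on day 0 (5048540 of 34670316 UMIs) and 18.2% on day 7 (7940285 of 43725319), a log2 ratio of 0.32 (0.317 to 0.320). In cynomolgus cells the 39 genes took 7.13% on day 0 and 6.69% on day 7, a log2 ratio of -0.09 (-0.096 to -0.088). The lower cynomolgus level goes with the shorter list: over the 39 symbols found in both genomes the human share was 7.204% on day 0 and 8.82% on day 7, a log2 ratio of 0.29. On day 0 the 39 genes thus summed to nearly the same share in both species, and on day 7 the human share was above the cynomolgus share. Single genes differed far more, and in both directions. On day 0 RPL27 had 1484 CPM in human and 3422 in cynomolgus cells, and RPL15 had 3363 and 1579. Near-equal sums therefore do not show equal levels, and whether reads are placed equally well on both genomes was not tested.

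Both subunits took part in the human difference. Large subunit genes went from 7.93% to 10.2% of human UMIs (1.29-fold) and small subunit genes from 6.45% to 7.82% (1.21-fold). The paralogs went the other way, from 0.155% to 0.0902%. In cynomolgus cells large subunit genes went from 3.58% to 3.43%, small subunit genes from 3.45% to 3.23%, and paralogs from 0.104% to 0.0326%.

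Cells differed widely in this share. The median human cell had 14.8% on day 0 and 18.6% on day 7, with standard deviations between cells of 3.35 and 4.65 percentage points, where counting error alone would give 0.499 and 0.583. The median cynomolgus cell had 7.25% and 6.86%, with standard deviations of 1.15 and 1.63 and counting errors of 0.370 and 0.387. The middle 90% of human cells ran from 11.3% to 23.5% on day 0 and from 12.2% to 25.4% on day 7, so the days overlapped. The upper end on day 0 comes from a separate group of cells described further on. The plot of the share per cell also shows a small low end on day 7 in both species. There, 137 human cells (1.68%) had a share under 5%, with a median of 1589 UMIs and 12.9% mitochondrial UMIs, against 5067 UMIs and 3.83% in the other human cells. Of the cynomolgus day 7 cells, 161 (2.49%) had a share under 3%, with medians of 1665 UMIs and 6.15% mitochondrial UMIs, against 5099 and 2.21%. On day 0 these limits, which were chosen after the plot was seen, held 0 human cells and 1 cynomolgus cell.

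**Figure D1:**
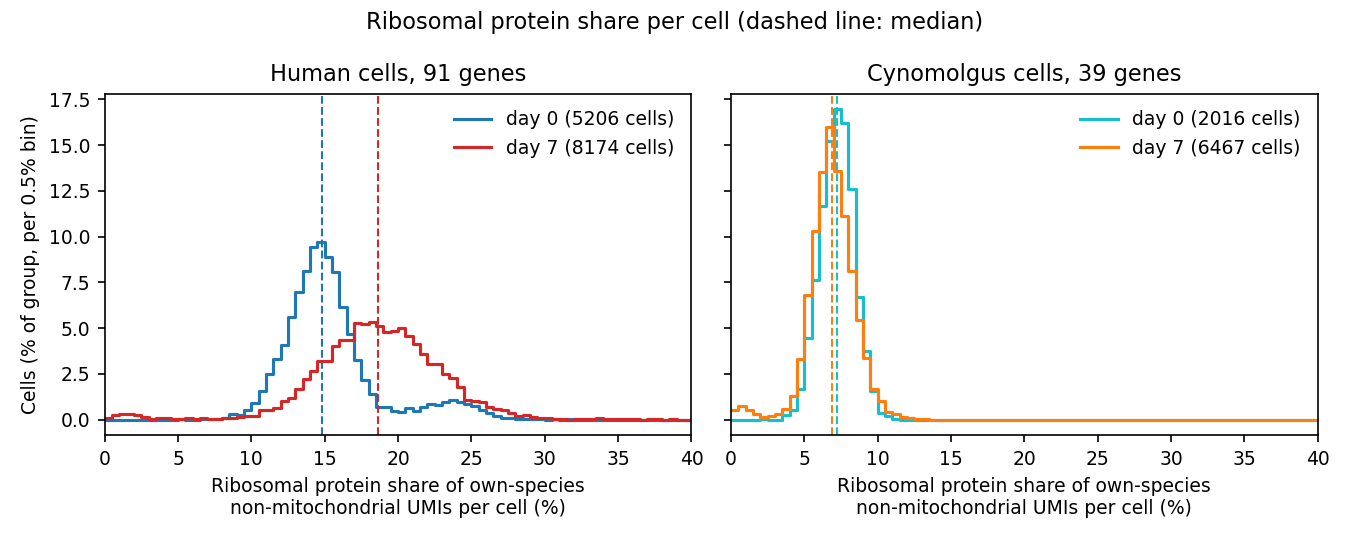
Distribution of the ribosomal protein share of own-species non-mitochondrial UMIs per cell (horizontal, %) as the percent of cells in bins of 0.5% (vertical), for human cells (left, 91 genes) and cynomolgus cells (right, 39 genes) on day 0 and day 7, with dashed lines at the medians. The human median moves from 14.8% to 18.6% and the day 0 curve has a second, small peak above 20%, while the cynomolgus medians lie at 7.25% and 6.86%.

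The share fell with the number of UMIs per cell in every group, with Spearman's rho across cells of -0.49 and -0.34 in human cells on day 0 and day 7 and -0.27 and -0.30 in cynomolgus cells. This is a description of cells within 1 library each. The days were therefore also set side by side within ranges of UMIs per cell. Human cells of 4000 to 6000 UMIs had 15.2% on day 0 (950 cells) and 18.9% on day 7 (3267 cells). In the 5 ranges from 3000 UMIs upward the human log2 ratio lay between 0.25 and 0.31. Below 3000 UMIs its direction was the opposite: -0.40 for cells of 1000 to 2000 UMIs and -0.10 for cells of 2000 to 3000. In cynomolgus cells the ratio was between -0.10 and -0.02 in the 5 ranges from 3000 UMIs upward and 0.06 in cells of 2000 to 3000 UMIs, with only 19 of these on day 0. Between 1000 and 2000 UMIs only 3 cynomolgus cells were present on day 0.

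Turning to single genes, 84 of the 91 human members reached 50 CPM of the group's own non-mitochondrial UMIs on either day, the level needed to be compared. These are all 77 large and small subunit genes, 6 paralogs and RPS19BP1. The members below it were the paralogs RPL3L and RPL10L, both Y-linked genes and 3 read-through transcripts that join RPL17, RPS10 or RPL36A to a neighbouring gene. Of the 39 cynomolgus members, 36 reached 50 CPM, and the others were RPL3L, RPL10L and the Y-linked gene. Changes are log2((CPM day 7 + 1)/(CPM day 0 + 1)). A member that reached the level on 1 day only was bound to differ, but this concerned none of the members with the largest changes named here, whose CPM was above 50 on both days, apart from cynomolgus RPS19BP1.

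The median change of the 84 human members was 0.36, with quartiles of 0.06 and 0.61. All 5285 human genes at this level had a median of 0.04 and quartiles of -0.62 and 0.64, and 2728 of them were higher on day 7. Large subunit genes had a median of 0.46 with 39 of 46 higher on day 7, and small subunit genes a median of 0.32 with 26 of 31 higher. The 6 measured human paralogs had a median of -0.71 with 1 higher. The 36 cynomolgus members had a median of -0.02 with 17 higher and 19 lower. All 5268 cynomolgus genes had a median of 0.03 with 2725 higher and 2543 lower, so the cynomolgus count is near the background. At least 1.5-fold higher on day 7 were 23 of 84 human members (27.4%), against 27.0% of all human genes, and 6 were at least 1.5-fold lower, against 26.0%. The share that was higher is near the background and is no result about these genes. In cynomolgus cells 1 of 36 was at least 1.5-fold higher, against 22.5% of all genes, and 3 were lower, against 19.4%.

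The members moved unevenly, though less so than genes at large by the human quartiles above. In cynomolgus cells the quartiles were -0.27 and 0.18, against -0.45 and 0.52 over all genes. The counts below are taken from the members' own median, which favours the members. In human cells it was 0.36, against 0.04 over all genes. At least 1.5-fold from the members' own median were 17 of 84 human members (20.2%), against 53.6% of all human genes measured from the same value. Of these, 6 were above it, against 14.8% of all genes, and 11 below it, against 38.8%. In cynomolgus cells 4 of 36 members were that far from their median (11.1%), against 42.1% of all genes, with 1 above against 23.5% and 3 below against 18.7%. The plot of levels by day shows how closely most members keep to a line parallel to the diagonal.

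**Figure D2:**
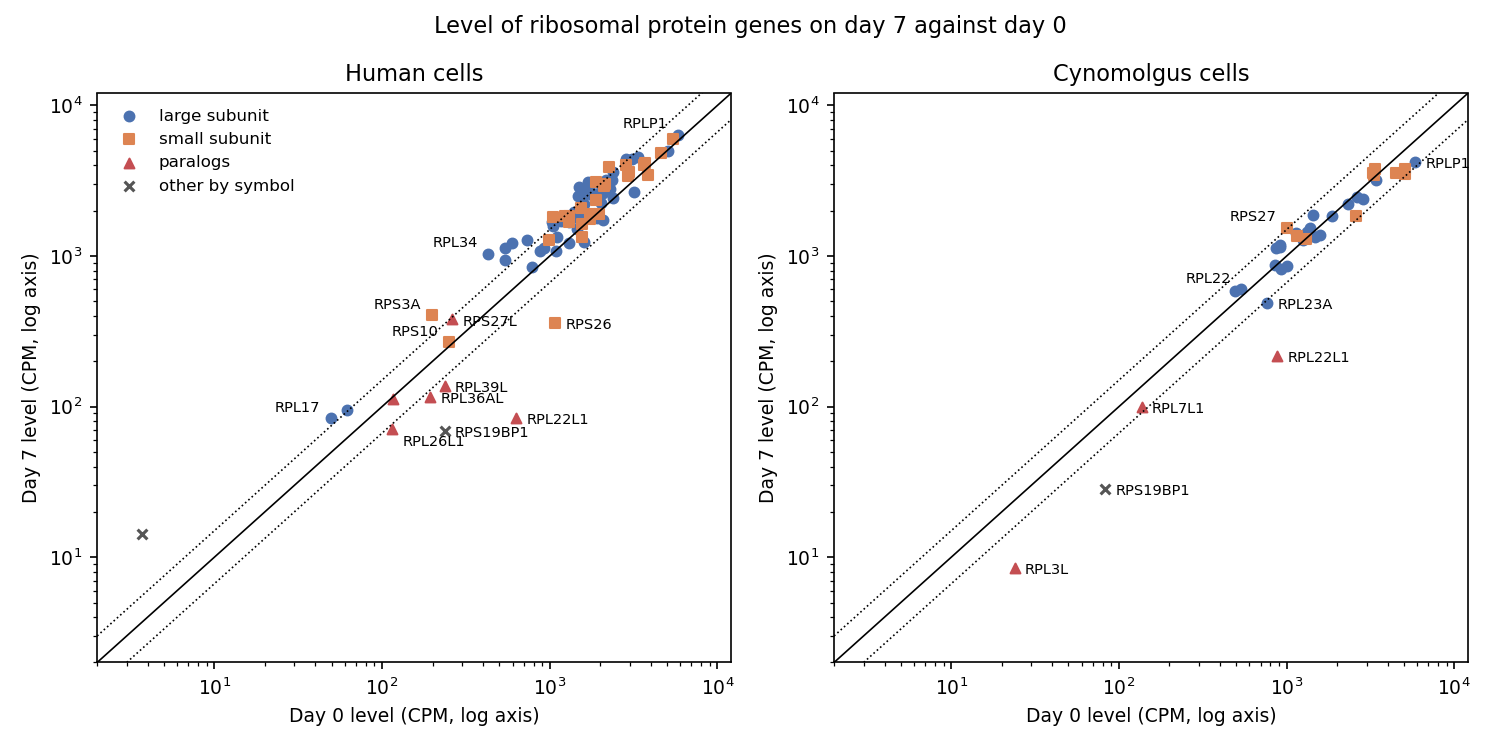
Level of members above 2 CPM on both days in human cells (left) and cynomolgus cells (right), day 0 horizontal and day 7 vertical in CPM of own-species non-mitochondrial UMIs on log axes, with symbols for large subunit genes, small subunit genes, paralogs and genes that enter by symbol only. The solid line marks equal levels and the dotted lines 1.5-fold. Human RPS26 (1075 and 360 CPM) and RPL22L1 in both species lie far under the line.

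RPLP1 and RPS23 were among the 5 most abundant members by UMIs in both species. A 3′ library counts 1 tag per captured transcript, so CPM is not divided by gene length, but it depends on how many reads could be placed on a gene and not on its near-identical copies. In human cells the highest by mean CPM were RPLP1, a protein of the stalk that recruits elongation factors (5814 CPM on day 0 and 6389 on day 7), RPS2 (5464 and 5987), RPL41, the smallest of the family (5067 and 4979), and RPS23 of the decoding centre (4591 and 4868). Of these 4, RPL41 was the only 1 with a lower value on day 7. Among the highest in cynomolgus cells were RPLP1 (5831 and 4209 CPM), RPS23 (5078 and 3796), RPS12 (5058 and 3503) and RPS28 (4513 and 3551). All 4 of these had a lower value on day 7. The lowest human core members were RPL17 at 49.4 and 83.5 CPM and RPL36A at 61.7 and 94.8 CPM, both of which share sequence with a read-through transcript in the annotation.

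Among human large subunit genes, 4 lay at least 1.5-fold above the members' median. RPL34 had 430.5 CPM on day 0 and 1038 on day 7, a change of 1.27 (1.24 to 1.30). RPL31, which sits at the rim of the tunnel through which new chains leave the ribosome, had 541.5 and 1123 CPM (1.05). RPL24, part of a bridge between the subunits, had 592 and 1218 CPM (1.04), and RPL37A had 1499 and 2891 CPM (0.95). The first 3 were at least 2.06-fold higher on day 7, against 1.29-fold for the large subunit as a whole. At the other end were RPL23A, also at the tunnel exit, with 1590 and 1245 CPM (-0.35), RPL12 at the base of the stalk with 2069 and 1724 CPM (-0.26), and RPL8 near the peptide-bond-forming centre with 3190 and 2661 CPM (-0.26).

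Among human small subunit genes the widest difference was in RPS26, a protein at the channel through which mRNA leaves the subunit. RPS26 had 1075 CPM on day 0 (37278 UMIs) and 360 CPM on day 7 (15757 UMIs), a change of -1.57 (-1.604 to -1.550), or 2.98-fold lower. It was the only 1 of the 77 human core genes that was at least 1.5-fold lower on day 7. RPS27A, made as a fusion with ubiquitin, had 1557 and 1330 CPM (-0.23). On the other side was RPS3A with 198 and 406 CPM (1.03). No cynomolgus gene carried the symbol RPS26, RPS3A, RPL34, RPL31, RPL24 or RPL12, so these differences were not measured in the macaque cells.

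Over the 36 symbols compared in both species, the quartiles of the change were 0.10 and 0.53 in human cells. In cynomolgus cells they were -0.27 and 0.18, a similar spread around a lower median. Among the cynomolgus members RPS27, a zinc-finger protein of the small subunit, was the only 1 of 36 at least 1.5-fold above their median. It had 1004 CPM on day 0 and 1541 on day 7 (0.62). It was followed by RPL38 (908 and 1188 CPM, 0.39), RPL28 (863 and 1122 CPM, 0.38), RPL26 (1432 and 1859 CPM, 0.38) and RPL39 (1131 and 1425 CPM, 0.33), all of the large subunit. The same 5 genes were also higher on day 7 in human cells, by 0.79, 0.81, 0.30, 0.37 and 0.63. RPL23A was lower, with 764 and 486 CPM (-0.65), as were RPS12 (-0.53) and RPS9 with 2595 and 1856 CPM (-0.48). In human cells RPS9 had nearly equal values, 1746 and 1771 CPM.

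Over the 36 members at 50 CPM in both species, 17 were higher on day 7 in both, 7 were lower in both, and 12 were higher in human cells but lower in macaque cells. None (0 of 36) was lower in human and higher in cynomolgus cells. The cynomolgus change was below the human change in 31 of 36. Across genes the order of changes was much alike, with Pearson's r of 0.92 and Spearman's rho of 0.78 over 36 genes, and r of 0.74 and rho of 0.74 over 34 genes without RPL22L1 and RPS19BP1. Genes are not independent replicates, and both species of a day share 1 library. The same counts and correlations over all genes are not given here. Neither the likeness nor the lower cynomolgus values are thus shown to be particular to these members. The plot of changes by gene shows the cynomolgus values lying below the human ones along most of the series.

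**Figure D3:**
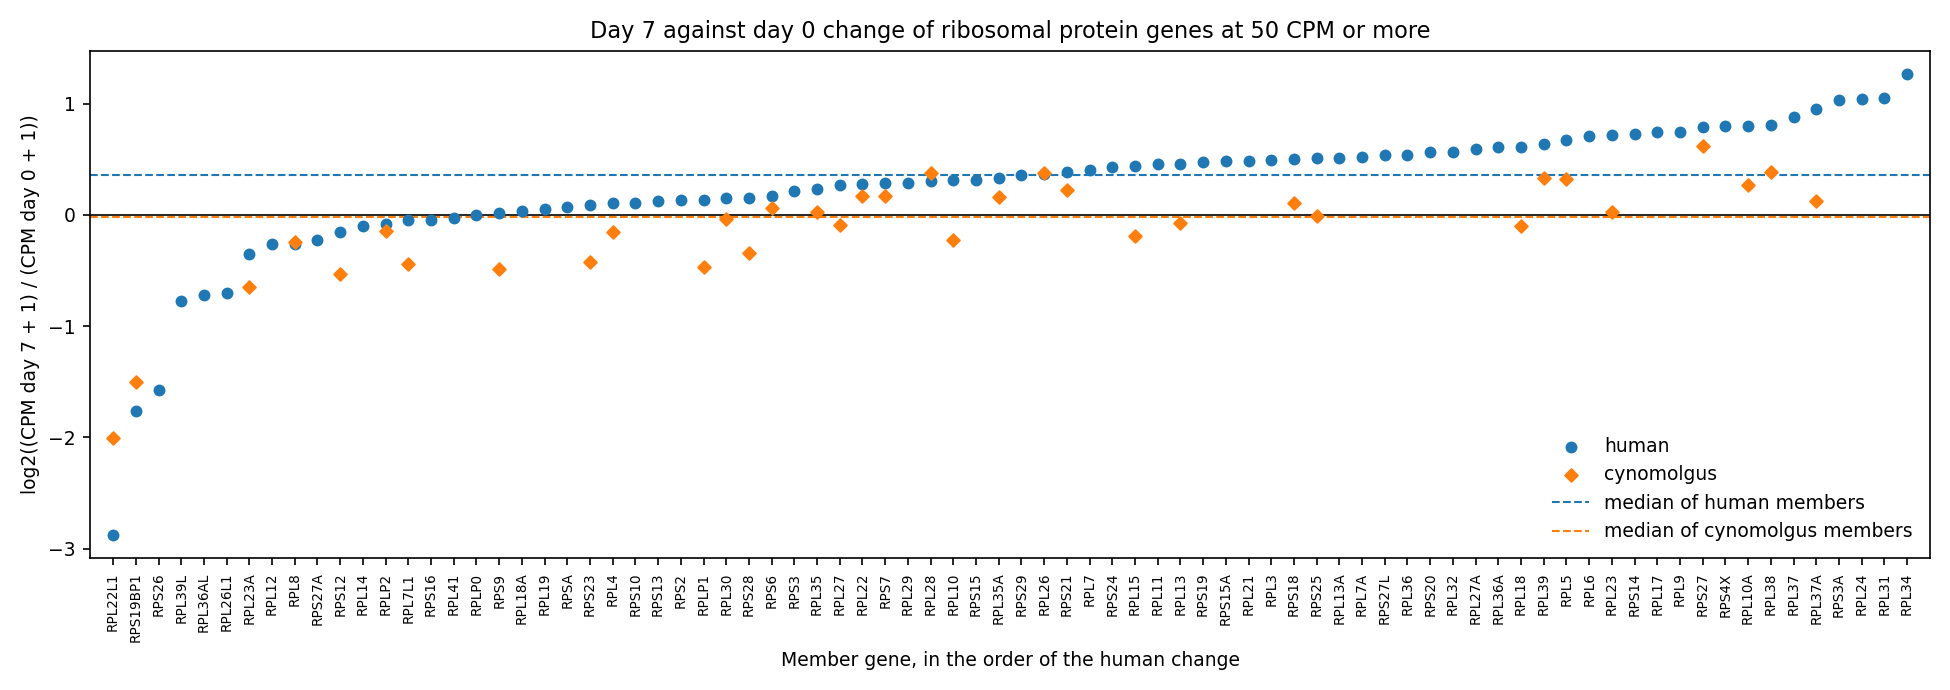
Change from day 0 to day 7 on the log2(CPM + 1) scale (vertical) of 80 human members (circles) in ascending order and of 35 cynomolgus members (diamonds) at the same symbol, with dashed lines at the medians of 0.36 and -0.02 over all compared members. RPL22L1 and RPS19BP1 are the lowest in both species, and 30 of the 35 diamonds lie below their circle.

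Of all compared members, the paralog RPL22L1 had the largest change in both species. RPL22L1 is the paralog of RPL22, and the products of both bind RNA outside the ribosome too. In human cells RPL22L1 had 628 CPM on day 0 and 84.6 on day 7, a change of -2.88 (-2.94 to -2.84), or 7.35-fold lower. In cynomolgus cells it had 880 and 218 CPM, a change of -2.01, or 4.03-fold lower. Its partner RPL22 was a little higher on day 7 in both species, with 1101 and 1336 CPM in human cells. In macaque cells RPL22 had 536 and 603 CPM. The part of RPL22L1 in the UMIs of the pair thus went from 36.3% (35.9% to 36.7%) to 5.95% (5.77% to 6.14%) in human cells. In cynomolgus cells it went from 62.1% (61.4% to 62.9%) to 26.5% (26.0% to 27.0%).

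The other human paralogs changed less, and not all alike. RPL39L, known from male germ cells and stem cells, went from 236 to 138 CPM and from 7.64% to 3.01% of its pair with RPL39. RPL26L1 went from 115 to 70.6 CPM and from 8.15% to 4.04% of its pair with RPL26. RPL36AL had 193 and 117 CPM and gave 75.8% and 55.1% of its pair with RPL36A. RPL7L1, a factor of ribosome assembly rather than a ribosome part, had 117 and 113 CPM, and 5.60% and 4.15% of its pair with RPL7. RPS27L, a target of p53, was the paralog with a higher level on day 7, 261 and 380 CPM (0.54), yet its part of the pair with RPS27 went from 19.98% to 17.3% since RPS27 was higher too. All 6 measured human paralogs therefore made up a smaller part of their pair on day 7.

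RPL3L, a muscle gene, had 27 and 21 UMIs in human cells, 0.0558% and 0.0245% of its pair with RPL3. In cynomolgus cells RPL3L had 23.9 and 8.49 CPM and RPL7L1 had 136 and 100.1 CPM, with no cynomolgus gene of the symbol RPL3 or RPL7 to set beside them. RPL10L, a testis gene, had 0 UMIs in all 4 groups, which allows at most 0.00993% and 0.00634% of the human pair with RPL10 and 0.0280% and 0.0101% of the cynomolgus pair (3 counts of the total). RPS19BP1, which is no ribosomal protein but binds RPS19, had 236 and 68.9 CPM in human cells (-1.76). Its cynomolgus levels were 82.7 and 28.6 CPM (-1.50). The read-through genes RPS10-NUDT3, RPL17-C18orf32 and RPL36A-HNRNPH2 had under 15 CPM on both days.

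Lists of related functions were read beside the members. Of the other ribosome parts, FAU and RACK1 had changes of -0.03 and -0.04 in human cells, where the 84 members had a median of 0.36. In cynomolgus cells RACK1 had -0.34. Translation factors whose mRNAs start like those of ribosomal proteins had a median of 0.20 over 16 human genes. Of these, 1 was at least 1.5-fold higher and 2 lower, against 27.0% and 26.0% of all human genes. Over 10 cynomolgus genes the median was 0.21, with 1 higher and 0 lower, against 22.5% and 19.4% of all genes. EEF1A1, which brings tRNA to the ribosome, had 2969 and 3382 CPM in human cells. It was the 1 cynomolgus gene past 1.5-fold, with 689 and 1245 CPM.

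Genes that build ribosomes were lower on day 7 in both species. Of 22 human assembly genes at 50 CPM, 20 were at least 1.5-fold lower and 0 higher, with a median of -1.08. NOP16 went from 106 to 18.1 CPM, NOP10 of the RNA-modifying particles from 685 to 192, and the abundant nucleolar protein genes NPM1 and NCL from 2747 to 1533 and from 949.7 to 517.5. Of 19 cynomolgus assembly genes, 16 were lower and 0 higher, with a median of -0.74, and NPM1 went from 1467 to 984 CPM. Mitochondrial ribosomal protein genes also were lower: 47 of 61 in human cells, with a median of -0.99, and 24 of 53 in cynomolgus cells, with 1 higher and a median of -0.57. The background share of genes at least 1.5-fold lower was the 26.0% and 19.4% given above. Of the snoRNA host gene list and the nuclear RNA list, 0 genes were in the files, so neither was measured.

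The G2 and M phase list was read beside the share. After thinning each cell to 2500 own-species UMIs, human day 7 cells with 0 UMIs of the 14 genes had a share of 19.9% (1762 cells), those with 1 to 3 had 19.3% (2971 cells) and those with 4 or more 17.5% (3030 cells). On day 0 the corresponding values were 14.5% (64 cells), 14.4% (1190 cells) and 14.7% (3436 cells), so no such order was seen. Cynomolgus day 7 cells had 7.42%, 7.16% and 6.71%, and day 0 cells 7.43%, 7.29% and 7.21%, with only 18 cells in the first of these day 0 classes. Cells too shallow to thin numbered 516 on day 0 and 411 on day 7 among human cells, and 19 and 510 among macaque cells. Within each of the 3 classes the human share was higher on day 7 than on day 0. Of the p53 target list, which holds RPS27L, 3 of 8 genes reached 50 CPM in human cells: SESN1 had 30.3 and 77.7 CPM, BAX 317 and 157, and RPS27L the values above.

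Members also differed in how much they varied from cell to cell beyond counting, once the total of member UMIs in each cell was taken as given. The variance over the binomial expectation had a median of 1.09 over human members on both days. Among the highest were RPS20 (2.31 on day 0 and 1.596 on day 7), RPL13A (2.08 and 1.69) and RPL27A (1.86 and 1.35). RPS2 followed on day 0 with 1.52, and RPS27L was among the highest on day 7 with 1.65. In cynomolgus cells the ratios stayed between 0.966 and 1.29 on day 0 and 1.01 and 1.21 on day 7, and RPS20, RPL13A and RPL27A had no cynomolgus symbol. In human cells these 3 went up and down together: across 5206 day 0 cells the 3 correlations among them were the highest of 3486 pairs of members, from 0.41 (RPL13A and RPL27A) to 0.46 (RPS20 and RPL13A). On day 7 they were among the 6 highest of 3570 pairs, from 0.22 to 0.29 over 8174 cells. The median over all pairs was -0.01 on both days, and 95% of pairs were below 0.05 and 0.03. The 3 genes made up more of the member UMIs in cells with more UMIs, with Spearman's rho of 0.17 to 0.20 on day 0 and 0.15 to 0.17 on day 7. The part of depth in this co-variation was not tested.

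On day 0 a group of human cells stood apart with few UMIs, few mitochondrial UMIs and a high ribosomal protein share. The limits were under 3000 UMIs and under 3% mitochondrial UMIs, which held 418 of 5206 human cells (8.03%). Their ribosomal protein share was 23.3% (23.2% to 23.3%), against 14.4% in the other 4788 cells, a log2 ratio of 0.70 (0.689 to 0.703) or 1.62-fold. The median cell had 23.4% against 14.6%, and the middle 90% ran from 19.6% to 26.4% against 11.2% to 18.3%, so these ranges did not overlap.

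Both limits cut through cells of similar share. With under 3% mitochondrial UMIs, the 56 cells of 2500 to 3000 UMIs had 23.3% and the 28 cells of 3000 to 3500 UMIs 22.6%. With under 3000 UMIs, the 116 cells of 2% to 3% mitochondrial UMIs had 23.4% and the 51 cells of 3% to 4% had 22.7%. All 147 cells under 3000 UMIs with 3% or more had 19.8%, all 70 cells of 3000 UMIs or more with under 3% had 19.0%, and the remaining 4571 cells had 14.3%. Against the other cells under 3000 UMIs alone the log2 ratio was 0.23, and against cells of 3000 UMIs or more with under 3% mitochondrial UMIs it was 0.30.

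**Figure D4:**
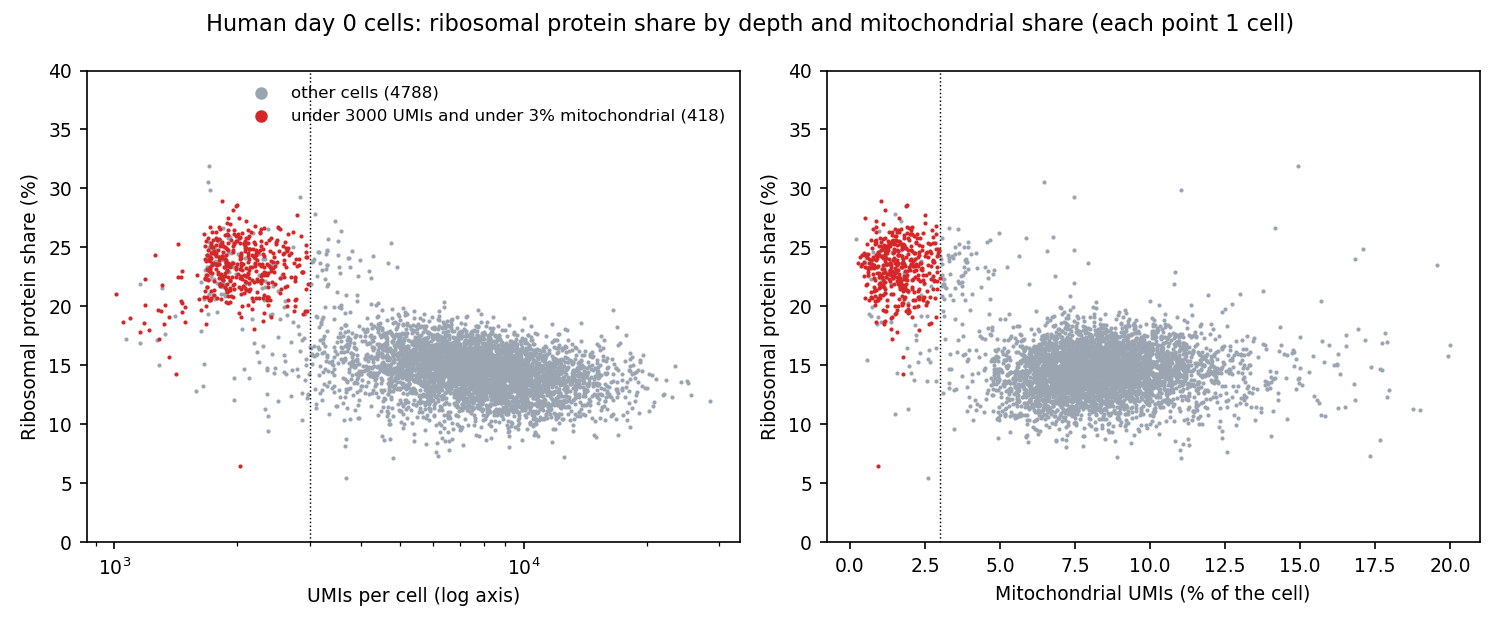
Ribosomal protein share (vertical, % of human non-mitochondrial UMIs) of each human day 0 cell against its UMIs (left, log axis) and its mitochondrial UMIs in percent (right), with the 418 cells under both limits in red and the other 4788 in grey. Dotted lines mark 3000 UMIs and 3%. The red cells centre near 23% and the bulk of the grey cells near 14%, and grey cells just past either limit lie near the red ones.

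The excess in these cells was spread over nearly the whole family. Of 84 members at 50 CPM in either set of cells, 67 were at least 1.5-fold higher (79.8%), against 12.7% of all genes at that level. None (0 of 84) was at least 1.5-fold lower, against 44.3% of all genes. The median difference was 0.68 over members and -0.31 over all 4564 genes. By role, 39 of 46 large subunit genes, 25 of 31 small subunit genes and 2 of 6 paralogs were past 1.5-fold. The widest differences were RPL31 with 1264 CPM against 524 (1.27), RPS26 with 2297 against 1046 (1.13), RPL38 with 1415 against 713 (0.99), RPS28 with 6682 against 3555 (0.91) and RPS29 with 2394 against 1284 (0.90). RPS26 was thus 2.19-fold higher in these cells, while in day 7 cells it was lower than in day 0 cells.

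The smallest differences were RPL7L1 with 97.5 CPM against 117 (-0.27), RPL4 with 771 against 784 (-0.02), RPL39L with 295 against 235 (0.33), RPL5 with 2147 against 1613 (0.41) and RPL22L1 with 865 against 622 (0.47). RPL4 and RPL7L1 were the only 2 of 84 that were not higher, where 2646 of all 4564 genes were lower. Of the paralogs, 3 made up less of their pair than in the other cells, with intervals that did not overlap. RPL22L1 gave 33.0% (31.0% to 35.0%) against 36.4% (36.1% to 36.8%), RPL39L gave 6.23% (5.48% to 7.05%) against 7.69% (7.53% to 7.86%), and RPL7L1 gave 3.22% (2.55% to 4.003%) against 5.68% (5.51% to 5.85%). The intervals of RPS27L, RPL26L1 and RPL36AL overlapped those of the other cells. All these intervals cover counting error only and leave out the spread between cells, so their overlap is no test of a difference.

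Related lists were read in the same cells. FAU and RACK1 were higher by 0.59 and 0.57, and mitochondrial ribosomal protein genes had a median difference of 0.53, with 21 of 63 past 1.5-fold higher and 1 lower. Assembly genes had a median of 0.22, with 4 of 23 higher and 3 lower. Over all genes 12.7% were past 1.5-fold higher and 44.3% lower, so the number of higher assembly genes is near the background. At the low end were TRPS1 and FAM189A1, with 0 UMIs in these cells against 53.9 and 51.5 CPM in the other cells, and TMEM132D with 10.00 against 363 CPM. These non-members were taken from the lowest values after those were seen.

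All 9 pluripotency markers were found in the 418 cells, with a sum of 4275 CPM against 4466 in the other day 0 cells. Within that sum 7 of the 9 were lower, among them SOX2 with 151 against 273 CPM, DNMT3B with 307 against 558 and L1TD1 with 949 against 1231, while POU5F1 was higher, with 1861 against 1190. Lower values were common in these cells: 2646 of all 4564 genes were lower, with a median difference of -0.31. Neural progenitor markers summed to 161 against 221 CPM. SOX11 (73.7 against 108 CPM), SIX3 (11.2 against 25.8), SIX6 (18.7 against 28.4) and DLK1 (6.25 against 23.5) had lower values. FABP7 had a higher value, 43.7 against 28.1 CPM, and LHX2 had 7.50 against 4.96. In the 418 cells the values of LHX2, DLK1 and SIX3 rest on few UMIs. PAX6, SOX1, HES5, NR2F1 and NR2F2 were at 0, but they had under 1 CPM in the other cells too, so no difference was detectable at this depth. Sums of the neural crest, mesoderm, endoderm and neuron markers were 46.2, 1.25, 3.75 and 8.75 CPM against 65.4, 3.28, 1.80 and 12.2. The 147 cells with few UMIs and 3% or more mitochondrial UMIs differed in this respect, with 1147 CPM of neural progenitor markers, among them DLK1 at 363, SIX6 at 185 and SIX3 at 174 CPM.

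Depth moved with this result. The 418 cells had a median of 2018.5 UMIs and 1142 genes, against 7476.5 and 3393.5 in the other cells, and 5.14% of their UMIs were on the cynomolgus genome, against 2.04%. The part of depth in the higher share was not tested. Human-genome UMIs found in cynomolgus cells of the same library held 11.2% ribosomal protein UMIs, and those of the 418 cells 23.3%. The 11.2% includes human copies such as RPL3 and RPS16, which there had 41.8% and 41.6% of their level in human cells. What these values mean for the higher share was not tested. The same limits in the other groups gave higher shares too: 25.4% in 121 human day 7 cells against 18.1% in the rest, and 7.81% in 480 cynomolgus day 7 cells against 6.66%. Only 3 cynomolgus day 0 cells were within the limits, too few to compare. Without the 418 cells on day 0 and the 121 on day 7, the human log2 ratio of day 7 to day 0 was 0.34.

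Ribosomal proteins are highly alike between primates, so human members were also counted in cynomolgus cells and the reverse. In cynomolgus cells the human copies had a median of 5.84% of their level in human cells on day 0 and 1.55% on day 7, over the 37 genes with a cynomolgus symbol and UMIs. For the 51 genes without a cynomolgus symbol it was 5.60% and 1.23%. Mitochondrial genes, which are easily told apart, gave 5.01% and 0.746%.

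A few human copies were far above these levels in cynomolgus cells, most of them lacking a cynomolgus symbol. RPL3 had 583 CPM on day 0 and 686 on day 7 in cynomolgus cells, 41.8% and 35.0% of its level in human cells. RPS16 had 814 and 599.6 CPM (41.6% and 31.7%), and RPL37 had 547 and 523 CPM (32.4% and 16.8%). Over 10% on day 7 were 7 of the 51 genes without a cynomolgus symbol (among them these 3, RPS3A, RPL13A and RPS10) and 2 of the 37 with one. The same count over all human genes is not given here, so no excess over genes at large is shown. Of the 2 with a symbol, the human copy of RPL23 gave 12.02% and 18.2% of the RPL23 UMIs in cynomolgus cells on day 0 and day 7. That of RPL28 gave 14.9% and 11.0%. By this part of the summed UMIs, RPL22, RPL39 and RPS19BP1 followed with 11.0%, 12.4% and 12.3% on day 0 and 4.98%, 3.55% and 2.27% on day 7. Set against their level in human cells, however, the human copies of RPL22, RPL39 and RPS19BP1 were not far above the rest. They had 6.02%, 5.60% and 4.91% of that level on day 0, near the median of 5.84%.

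In human cells the cynomolgus copies were lower, with a median of 2.60% of their level in cynomolgus cells on day 0 and 0.873% on day 7 over 37 genes. By their part of the summed UMIs of both copies, the highest were RPL3L (37.2% and 22.2%, from 16 and 6 UMIs), RPL27 (5.87% and 1.69%), RPL22L1 (3.21% and 2.40%), RPS9 (3.47% and 0.818%) and RPL38 (3.34% and 0.886%). Summing both copies by symbol left the cynomolgus change in share below 0, at -0.13.

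**Figure D5:**
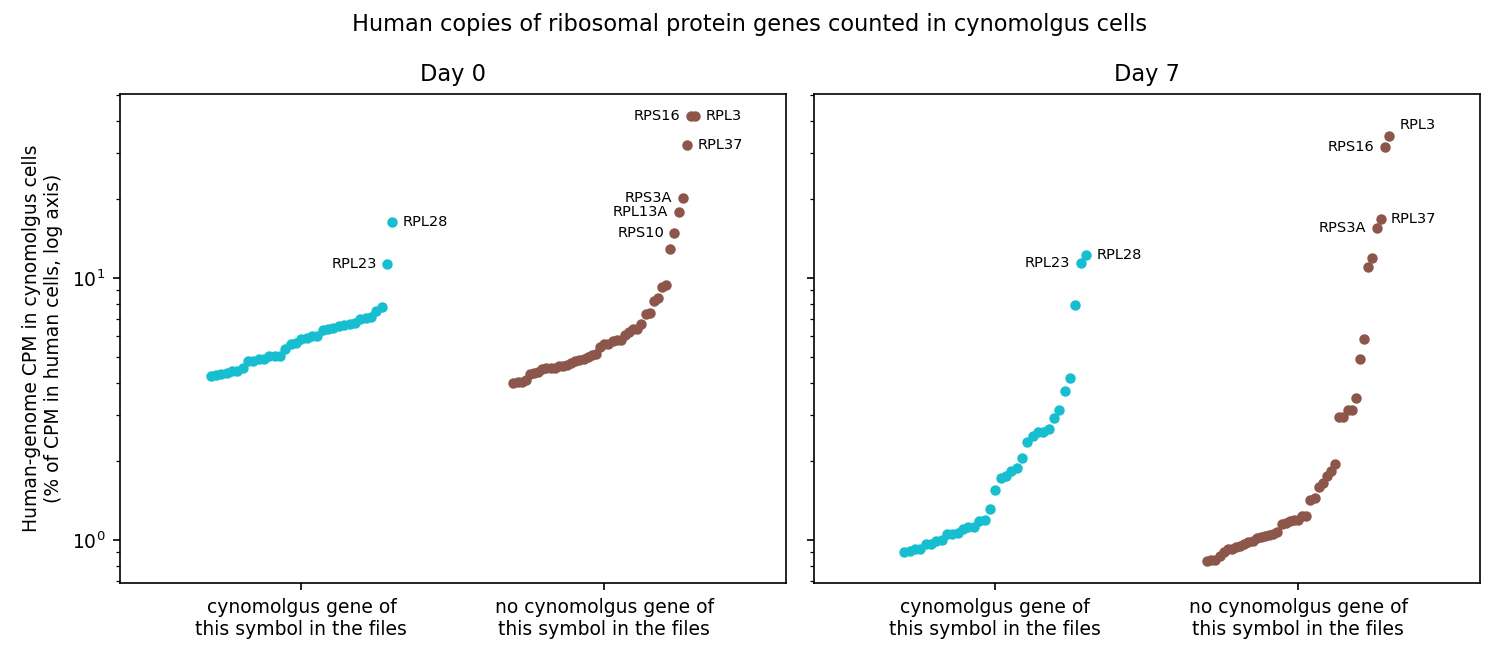
Level of the human copies of members in cynomolgus cells as a percent of their level in human cells (vertical, log axis), on day 0 (left) and day 7 (right), for members with and without a cynomolgus gene of the same symbol in the files, among those with at least 10 such UMIs on day 7, each group in ascending order. On day 7 most points lie near 1% and RPL3 and RPS16, both without a cynomolgus symbol, above 30%.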

How the data were processed

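The authors deposited UMI counts per gene and barcode for 2 libraries made with 10x 3′ v3.1 kits. The matrices came from Cell Ranger 7.1.0 per the file headers, and from 7.2.0 per the submitters' processing notes. Gene prefixes name GRCh38 and Macaca_fascicularis 6.0 (Ensembl release 107). How reads were mapped is not given in the sources used here. Members with near-identical pseudogenes, paralogs or read-through neighbours are uncertain.

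Cells were called as in the report. UMIs were summed per species and day, and CPM is of own-species non-mitochondrial UMIs. Doublets were not removed. Members and lists were chosen with earlier results of these data known. Named genes are the 5 largest changes each way, the 5 most abundant, the 5 most and least different in the low-UMI cells, the 5 most variable across cells, the 5 with most other-genome UMIs, and the paralogs with their partners. Members at least 1.5-fold from their median are named besides. Some genes that met these rules are not reported here and are left out of the plots of single genes, but stay in the counts and shares. Intervals are exact, at 95%, and cover counting error only. The arithmetic was tested on simulated data. Alternatives covered cell limits, the total, weighting, the pseudocount and the minimum level. Software was matplotlib 3.10.9, pandas 2.3.3, scipy 1.17.1 and numpy 2.4.6 in Python 3.11.15.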

Additional observations from a re-analysis of the deposited data

Results flagged for a closer look

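The change of the ribosomal protein share went opposite ways in the 2 species: the log2 ratio of day 7 to day 0 was 0.32 in human and -0.0922 in cynomolgus cells. Over the 39 symbols found in both genomes it was 0.29 and -0.0922. With 1 library per day and 1 line per species the difference was not tested.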

How the results depend on the processing

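No paired analysis was possible because each day is 1 library. The change of the share kept its direction under the alternatives listed here, from 0.27 to 0.38 in human cells and from -0.14 to -0.0619 in cynomolgus cells, but not in cells under 3000 UMIs taken alone. There it was -0.40 (1000 to 2000 UMIs) and -0.10 (2000 to 3000) in human cells, and 0.06 (2000 to 3000) in cynomolgus cells. For human and cynomolgus cells in turn it was 0.31 and -0.14 with species called at 80% of UMIs, 0.38 and -0.0619 over all own-species UMIs, 0.27 and -0.0787 with equal weight per cell, 0.33 and -0.0831 without the 5% of cells with the most UMIs, 0.32 and -0.13 with both genomes summed, 0.34 and -0.10 without the low-UMI low-mitochondrial cells, and 0.31 and -0.0870 in cells of 4000 to 6000 UMIs, a range chosen after seeing the data. For human cells it was 0.33 at 95% of UMIs, 0.34 at 3000 UMIs or more, 0.32 at 10% mitochondrial UMIs or less, and 0.29 over symbols in both species. A call at 95% left 0 cynomolgus day 0 cells and gave no value. Members past 1.5-fold from their median numbered 15 to 19 in human and 3 to 5 in cynomolgus cells. The 17 human members with the largest changes or past 1.5-fold from their median, and the 10 cynomolgus ones, kept their direction in all 221 and 120 comparisons. These comparisons re-use the libraries in which the members were picked for their changes, so the counts are no independent support. The excess in low-UMI low-mitochondrial cells was 0.69 under 2000 UMIs, 0.69 under 2% mitochondrial UMIs, 0.71 at 95% of UMIs, 0.80 over all own-species UMIs, 0.66 with equal weight per cell, 0.23 against other cells under 3000 UMIs, and 0.30 against cells of 3000 UMIs or more with under 3%. The cause of these shifts was not tested. Depth left counting error small for the shares. It limits RPL3L and RPL10L, and the 3 cynomolgus day 0 cells within the low-UMI limits.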
